A study of Homo sapiens with 8 samples.

Results

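Secreted signals of HCT116 cells were examined through 10 genes taken by name from a table of 58302 genes: the stress cytokine gene GDF15, the chemokine genes CXCL1, CXCL2, CXCL3, CXCL8 and CCL20, the interleukin genes IL1A and IL18, and the growth factor genes LIF and KITLG. Each symbol stood on 1 line of the table. HCT116 p53+/+ is an established human colon cancer line with intact p53. The cells were grown in flasks and received 1 µM MANIO, a compound named in the labels by this code only, or the solvent DMSO alone, and RNA was taken after 24 hours. Each group has 4 libraries that the labels number as replicates without saying whether passages or days differed, so every p-value measures the spread between these libraries, which may be technical.

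GDF15 is a distant member of the TGF-beta family that many stressed cells secrete, and it acts on neurons of the hindbrain through the receptor GFRAL with its partner RET. CXCL1, CXCL2, CXCL3 and CXCL8 are ELR-type chemokines that call neutrophils through CXCR1 and CXCR2, and CCL20 attracts cells bearing CCR6. IL1A and IL18 belong to the interleukin-1 family, LIF is an interleukin-6-type cytokine that signals through LIFR and IL6ST, and KITLG is stem cell factor, the ligand of the receptor tyrosine kinase KIT. In epithelial cells the chemokine genes are known as targets of NF-kB, and GDF15 is known as a target of p53 and of ATF4-driven stress signalling.

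The stretches just upstream of a single annotated transcription start are shown for the genes that changed most in each direction. They are also shown for the ELR chemokines, which share an NF-kB element. They come from the RefSeq promoter table (GRCh38.p14), which held 8 of the 10 genes. IL18 and LIF had no entry. Both sequences below run 5′ to 3′ along the gene and end 1 base before the start. GDF15 is shown for chr19:18385908-18386157 (plus strand) and KITLG for chr12:88580472-88580721 (minus strand). Capitals mark matches to TATAAA, to the NF-kB consensus, to the p53 half-site, to the AP-1 letters TGANTCA and to GGAATTTCC.
GDF15: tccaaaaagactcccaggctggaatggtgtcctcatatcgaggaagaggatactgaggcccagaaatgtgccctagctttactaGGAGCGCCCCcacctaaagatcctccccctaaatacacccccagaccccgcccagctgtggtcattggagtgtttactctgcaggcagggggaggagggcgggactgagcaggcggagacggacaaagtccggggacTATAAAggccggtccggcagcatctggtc
KITLG: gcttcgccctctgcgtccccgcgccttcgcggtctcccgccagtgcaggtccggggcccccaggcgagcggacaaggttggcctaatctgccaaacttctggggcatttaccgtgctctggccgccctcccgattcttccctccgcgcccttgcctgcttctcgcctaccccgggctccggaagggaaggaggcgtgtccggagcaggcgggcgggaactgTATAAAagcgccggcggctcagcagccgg

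Both promoters held TATAAA from base -29 to base -24, counted from the start. GDF15 also matched the NF-kB consensus on the opposite strand at -166 to -157. All motifs were searched on both strands in the 250 bases before the start. TATAAA was found in 10.7% and the NF-kB consensus in 9.96% of 35116 promoters in the table. The p53 half-site, which 5.57% of promoters held, and TGATGCAA, a C/EBP-ATF element held by 0.772%, matched none of the 8 promoters in this window.

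For the ELR chemokines the stretch from base -110 to base -21 is shown, where the NF-kB element lies. It covers chr4:73869283-73869372 for CXCL1 and chr4:73740459-73740548 for CXCL8 (plus strand), and chr4:74099216-74099305 for CXCL2 and chr4:74038710-74038799 for CXCL3 (minus strand). Capitals mark the NF-kB consensus on either strand, GGAATTTCC and TATAAA.
CXCL1: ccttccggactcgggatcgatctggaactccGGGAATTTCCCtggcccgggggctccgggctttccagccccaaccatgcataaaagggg
CXCL2: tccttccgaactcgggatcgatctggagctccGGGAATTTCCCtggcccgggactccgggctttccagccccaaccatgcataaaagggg
CXCL3: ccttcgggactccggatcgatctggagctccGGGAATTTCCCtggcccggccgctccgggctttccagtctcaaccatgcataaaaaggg
CXCL8: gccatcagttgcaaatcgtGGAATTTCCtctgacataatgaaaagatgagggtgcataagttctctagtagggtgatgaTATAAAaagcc

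GGAATTTCC stood in all 4 of these promoters and in 0.413% of the table. In CXCL1, CXCL2 and CXCL3 it overlaps matches to the NF-kB consensus on both strands, and CXCL8 holds it without a consensus match. Over the whole 250 bases, 81.4% of aligned positions were identical between CXCL1 and CXCL3, 73.4% between CXCL2 and CXCL3 and 70.1% between CXCL1 and CXCL2, against 43.9% between CXCL1 and CXCL8. CXCL8 and IL1A also matched the AP-1 letters, which 6.57% of promoters held. A match describes the letters and is no evidence of binding.

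Total counts ranged from 27945196 to 32509020 per library, and 15712 genes had enough counts to be tested. These totals exceed the approximate number of raw reads that the labels state, and the sources used here do not say why, so a count may not stand for 1 independent fragment. Levels are in CPM, a gene's counts relative to the TMM-scaled library total. A gene was called where edgeR's quasi-likelihood F test gave an adjusted p under 0.05. Of all tested genes 54.6% were called, 27.8% higher and 26.8% lower in MANIO, and the groups did not overlap for 48.3%. Of 12 colon epithelial markers 9 were tested. KRT8, KRT18, KRT19 and EPCAM were abundant. KRT20 (1.57 CPM in DMSO and 1.54 CPM in MANIO) and MUC2 (0.156 and 1.76 CPM) were low. Of the 9 tested, 6 or 66.7% were called higher and 0 lower, against 27.8% and 26.8% of all genes. MUC2, among the 6, had enough counts only through its MANIO libraries, so from its DMSO level a fall could not have been tested. The summed markers ranged from 3478 to 3756 CPM in DMSO and from 4269 to 4773 CPM in MANIO. The epithelial markers VIL1, CDX1 and LGR5 were below the filter. DMSO replicate 1 had the highest share of mitochondrially encoded counts in its group, 7.48% against 4.82% to 5.21%, and the MANIO libraries held 6.70% to 7.62%.

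Of the 10 genes, GDF15 and IL1A rose, KITLG fell, 6 did not pass the test and CCL20 had too few counts to be tested. The 3 called genes make 33.3% of the 9 tested, against 54.6% of all genes. The same 3 genes were those whose groups did not overlap. The median log2 fold change of the 9 genes was -0.08, beside 0.0043 over all tested genes. The plot of levels by library shows each gene on its own scale, since the genes span several orders of magnitude.

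**Figure D1:**
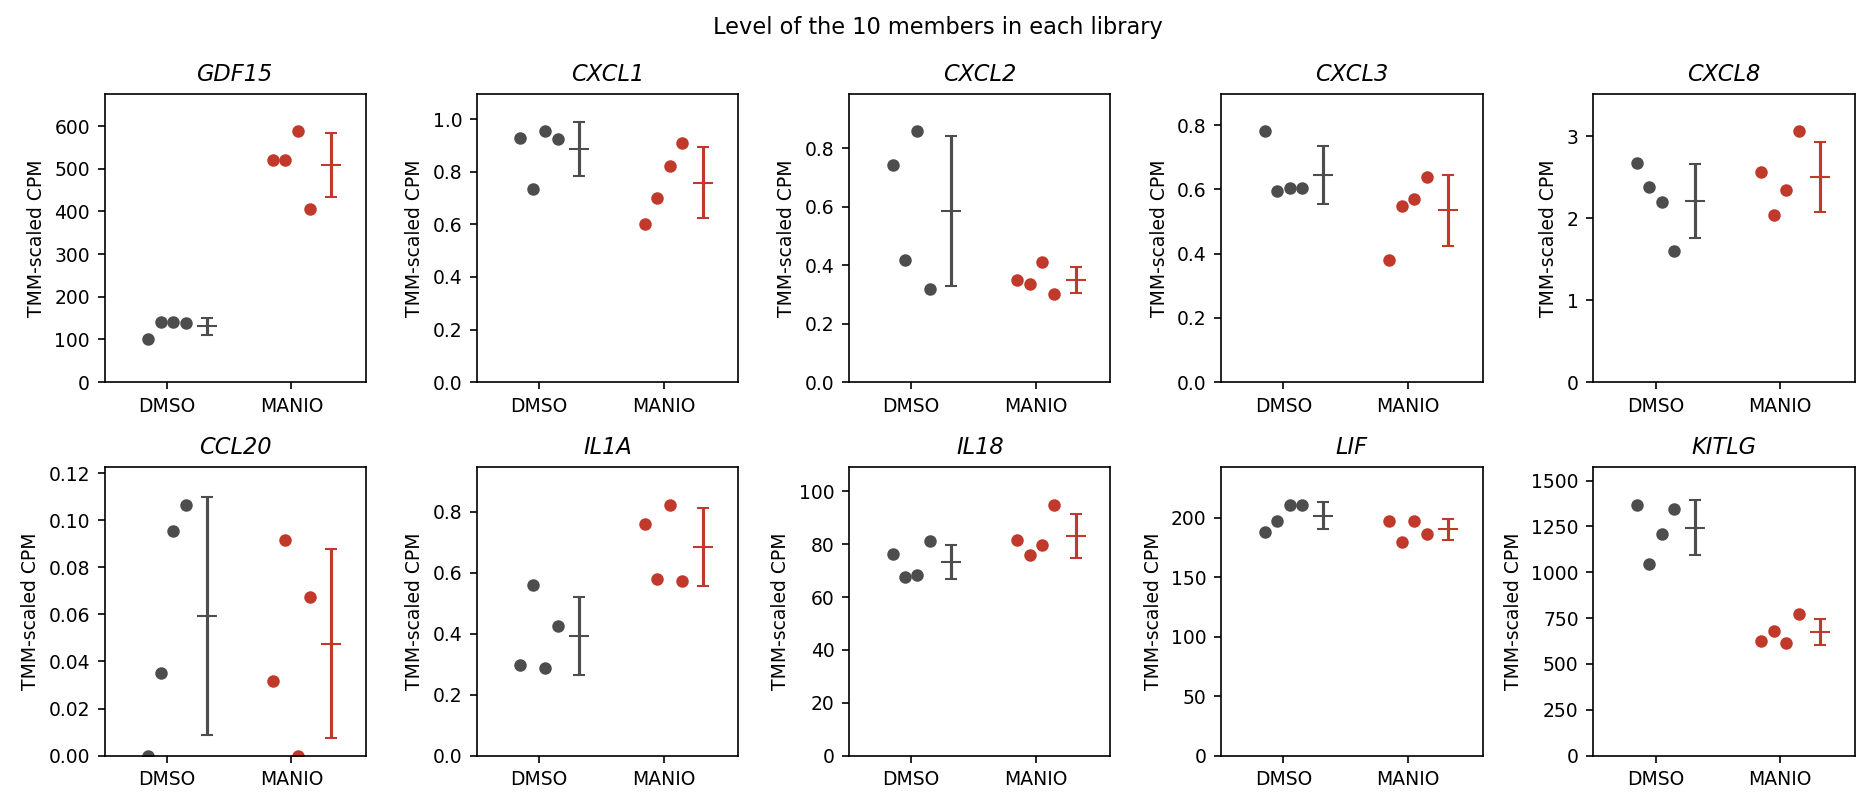
Level of each of the 10 genes in TMM-scaled CPM (linear axis from 0, own scale per gene) in the 4 DMSO and 4 MANIO libraries; points are libraries in order of replicate number, and the bar beside them is the mean ± SD. The MANIO libraries lie above all DMSO libraries for GDF15 and IL1A and below them for KITLG, while the other genes overlap between groups.

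GDF15 was the gene of the set with the largest change. The DMSO libraries held 100.4, 142, 141 and 139 CPM for replicates 1 to 4, and the MANIO libraries held 521, 519.7, 588 and 406 CPM. Every MANIO library was thus well above every DMSO library, with DMSO replicate 1 and MANIO replicate 4 the lowest of their groups. The mean went from 131 ± 20.2 to 509 ± 75.5 CPM (SD, n = 4 each), a 3.90-fold rise with a 95% interval from 3.18 to 4.77. The log2 fold change was 1.96 (SE 0.132), the rise ranked 146 of 15712 tested genes, and edgeR gave an adjusted p of 4.6e-07. Without DMSO replicate 1, the library that also had the raised mitochondrial share, the log2 fold change was 1.85. The part of that share in the low GDF15 level was not tested. GDF15 (ENSG00000130513) lies on chromosome 19 at 18374731 to 18389176 on GRCh38, no other annotated exon overlaps its exons, and no 50-base window of its transcripts recurs in another gene.

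By root mean square difference between log2 levels centred on each gene's mean over the 8 libraries, the 5 genes most like GDF15 among 12093 candidates were CYSRT1, EPPK1, PHYHIP, ACTA2 and HYAL1. Their differences ran from 0.116 to 0.161, where the median candidate differed by 1.01. EPPK1, the gene of the cytolinker epiplakin, went from 31.7 ± 3.83 to 113 ± 10.8 CPM, and HYAL1, a hyaluronidase gene, from 7.69 ± 0.479 to 31.8 ± 2.39 CPM (SD, n = 4 each). ACTA2, which encodes smooth muscle actin, went from 5.05 ± 0.707 to 18.8 ± 1.22 CPM. The log2 fold changes of the 5 genes ran from 1.83 to 2.19, and the genes compared share the same libraries. The measure includes the difference between the groups, so genes picked by it lie near the fold change of the gene they are compared with.

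KITLG, which had the highest level per kilobase of the 10 genes in DMSO, fell. Its DMSO libraries held 1369, 1044, 1210.2 and 1346 CPM and its MANIO libraries 627, 682, 617 and 775 CPM. The highest MANIO library was below the lowest DMSO library. The mean went from 1242 ± 149.8 to 675 ± 72.4 CPM (SD, n = 4 each), 1.84-fold lower, with a log2 fold change of -0.88 (SE 0.0903) and an edgeR adjusted p of 2.01e-06.

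KITLG (ENSG00000049130) spans 88.1 kb on chromosome 12, from 88492793 to 88580851 on GRCh38. Long genes fell more often: 60.2% of those spanning 200 kb or more were called lower, against 19.7% of genes under 10 kb. In the span class of KITLG, 50 to 100 kb, 27.5% were called lower and 27.4% higher, near the 26.8% and 27.8% of all genes. Of the 2492 tested genes in the span class of KITLG, 46 had a log2 fold change as low as its own or lower. So had 88 of 4264 genes under 10 kb and 201 of 977 spanning 200 kb or more. Among all 15712 tested genes the log2 fold change of KITLG ranked 15222 from the highest. The part of gene length in its fall was not tested. The 5 genes most like KITLG by the same measure, added to the comparison after its values were seen, were ETV1, PRKACB, PCDH7, MPP7 and MKX, at differences of 0.0403 to 0.0722 against a median of 0.468. ETV1, an ETS-family transcription factor gene, went from 72.5 ± 8.003 to 39.9 ± 3.87 CPM, and PRKACB, a catalytic subunit gene of protein kinase A, from 299.8 ± 27.9 to 157 ± 15.6 CPM (SD, n = 4 each). These 5 genes span 73.2 to 426 kb.

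IL1A rose from a very low level. Its counts were 8, 16, 9 and 12 in the DMSO libraries and 24, 19, 26 and 17 in the MANIO libraries. These correspond to 0.298, 0.559, 0.286 and 0.426 CPM in DMSO and 0.760, 0.579, 0.823 and 0.572 CPM in MANIO, so the lowest MANIO library lay just above the highest DMSO library. The mean went from 0.392 ± 0.128 to 0.684 ± 0.127 CPM (SD, n = 4 each), and the log2 fold change was 0.80 (SE 0.266, edgeR adjusted p = 0.0190). IL1A had enough counts to be tested only through its MANIO libraries, so from its DMSO level a fall could not have been tested. The call was not stable. The adjusted p was 0.0852 with DESeq2, and in edgeR it was 0.0522 without DMSO replicate 1, 0.0680 without DMSO replicate 3 and 0.0592 without MANIO replicate 3. IL1A (ENSG00000115008) lies on chromosome 2 at 112773915 to 112784590, and it encodes interleukin-1 alpha, which is active without cleavage and is released by damaged cells.

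IL18 was well expressed, and its difference was small. The DMSO libraries held 76.1, 67.5, 68.3 and 81.2 CPM and the MANIO libraries 81.6, 76.0, 79.5 and 94.9 CPM. Both groups overlap, with DMSO replicate 4 above MANIO replicates 2 and 3 and MANIO replicate 4 above all others. The log2 fold change was 0.18 (SE 0.0761), its 95% interval ran from 1.01-fold to 1.27-fold, and edgeR's adjusted p of 0.0574 missed the threshold. It passed without DMSO replicate 4 (0.0274) and without MANIO replicate 2 (0.0369), and the fit without MANIO replicate 4 gave 0.176.

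LIF was close to level across all libraries. The DMSO libraries held 187, 197, 211 and 210.3 CPM and the MANIO libraries 197, 180, 197 and 186 CPM, with overlapping groups. The means were 201 ± 11.3 and 190 ± 8.59 CPM (SD, n = 4 each). The log2 fold change was -0.08 (SE 0.0554, edgeR adjusted p = 0.213), and its 95% interval ran from 0.869-fold to 1.02-fold. Exons of LIF-AS1 and AC004264.1 overlap 6.73% of the exonic bases of LIF, and reads from the opposite strand cannot be separated in libraries of this kit.

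The ELR chemokine genes sat at low levels in both groups and none was called. CXCL8 held 2.68, 2.38, 2.20 and 1.599 CPM in DMSO and 2.57, 2.04, 2.34 and 3.06 CPM in MANIO, from 45 to 91 counts per library. Its log2 fold change was 0.18 (SE 0.168, edgeR adjusted p = 0.396), with a 95% interval from 0.882-fold to 1.45-fold. CXCL1 went from 0.885 ± 0.102 to 0.759 ± 0.135 CPM (SD, n = 4 each; log2 fold change -0.23, SE 0.200, adjusted p = 0.358) on 19 to 30 counts per library, with libraries from 0.734 to 0.955 CPM in DMSO and from 0.602 to 0.908 CPM in MANIO. CXCL3 went from 0.646 ± 0.0903 to 0.534 ± 0.110 CPM (-0.27, SE 0.230, adjusted p = 0.348) on 12 to 21 counts, with libraries from 0.594 to 0.781 CPM in DMSO and from 0.380 to 0.639 CPM in MANIO. For CXCL1 and CXCL3 the 95% intervals ran from 0.636-fold to 1.149-fold and from 0.590-fold to 1.17-fold. The 5 genes most like CXCL8 by the measure used for GDF15 were ZNF483, S100A13, MBNL3, ZNF543 and SIRT4, at differences of 0.135 to 0.152 against a median of 0.304.

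CXCL2 was the least settled of them. Its counts were 20, 12, 27 and 9 in DMSO and 11, 11, 13 and 9 in MANIO. The DMSO libraries were spread widely, replicates 1 and 3 well above every MANIO library, replicate 2 (0.419 CPM) just above the highest of them (0.411 CPM) and replicate 4 among them. The log2 fold change was -0.75 (SE 0.318) and edgeR's adjusted p was 0.0593. It was 0.0365 without DMSO replicate 2 and 0.0163 without DMSO replicate 4, the lower libraries of that group, and 0.139 without DMSO replicate 1 and 0.241 without DMSO replicate 3, the higher ones. Of the 50-base windows of its transcripts 12.5% recur in CXCL3 or CXCL1, against 6.01% for CXCL3, 4.81% for CXCL1 and 0 for CXCL8. The sources used here do not say how reads matching several places were treated, so the split between these 3 paralogues is uncertain.

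CCL20 was at the edge of detection, with 0, 1, 3 and 3 counts in DMSO and 1, 3, 0 and 2 in MANIO. The ratio of the summed counts, 6 in MANIO and 7 in DMSO, was 0.785 with an exact Poisson interval from 0.218 to 2.73, which covers counting error only and takes each count as independent.

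**Figure D2:**
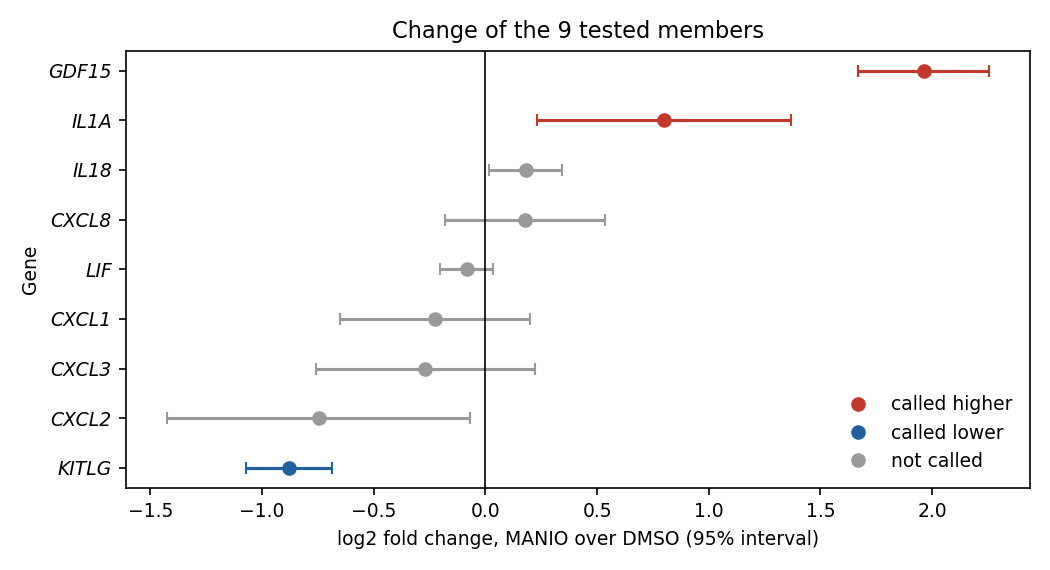
Log2 fold change of MANIO over DMSO for the 9 tested genes (points) with 95% intervals from edgeR (bars); red marks genes called higher, blue called lower and grey not called. GDF15 at 1.96 stands apart from IL1A at 0.80, and KITLG at -0.88 has a narrower interval than CXCL2 at -0.75.

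Per kilobase of exon, the scale on which levels of different genes can be set side by side, the order in DMSO was KITLG (200.2 ± 24.1 CPM per kb), GDF15 (62.6 ± 9.66), LIF (50.7 ± 2.84), IL18 (27.9 ± 2.498), CXCL8 (0.973 ± 0.200), CXCL1 (0.683 ± 0.0787), CXCL2 (0.390 ± 0.171), CXCL3 (0.291 ± 0.0407) and IL1A (0.185 ± 0.0603; SD, n = 4 each). The mean ± SD ranges overlapped between GDF15 and LIF, between CXCL2 and CXCL3 and between CXCL2 and IL1A. KITLG was above 99.1% of tested genes in DMSO on this scale, while CXCL8 was above 24.2% and IL1A above 6.48%. In MANIO, GDF15 at 244 ± 36.2 CPM per kb stood first and KITLG at 109 ± 11.7 second. IL1A, at 0.322 ± 0.0599, was then level with CXCL3 at 0.241 ± 0.0495 within their SDs. A bulk library averages over its cells, so a change in the share of cells that express a gene and a change per cell cannot be told apart.

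The receptors of these ligands ranged from undetected to well expressed. CXCR2, the shared receptor of the ELR chemokines, held 4, 9, 2 and 6 counts in the DMSO libraries and 53, 54, 51 and 44 in the MANIO libraries. All MANIO libraries were far above all DMSO libraries. The mean went from 0.185 ± 0.106 to 1.605 ± 0.0872 CPM (SD, n = 4 each), with a log2 fold change of 3.11 (SE 0.277, edgeR adjusted p = 2.7e-07). CXCR2 had enough counts to be tested only through its MANIO libraries, so from its DMSO level a fall could not have been tested. CXCR2 (ENSG00000180871) lies on chromosome 2 at 218125289 to 218137253, and 6.41% of its 50-base transcript windows recur elsewhere, mainly in CXCR1 and the pseudogene CXCR2P1. CXCR1 itself had 10 counts in all DMSO libraries together and 17 in all MANIO libraries.

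CXCR2 is best known from neutrophils, so markers of leukocytes were read beside it. PTPRC, the pan-leukocyte gene, had 0 counts in DMSO and 1 in MANIO, CD163 and MS4A1 were at 0 in all libraries, and 11 of 13 leukocyte markers were below the filter. Their summed level ranged from 0.541 to 1.23 CPM in DMSO and from 2.29 to 2.63 CPM in MANIO. ITGAM, an integrin subunit gene on that list, made up most of the difference, going from 0.460 ± 0.214 to 1.80 ± 0.109 CPM (SD, n = 4 each; log2 fold change 1.98, edgeR adjusted p = 1.1e-05). Summed fibroblast markers ranged from 21.6 to 26.5 CPM in DMSO and from 39.5 to 47.7 CPM in MANIO, nearly all of it COL1A1, with LUM and PDGFRA at 0. Endothelial markers summed to 1.12 to 1.35 CPM in DMSO and 0.396 to 0.570 CPM in MANIO, with CLDN5 at 0. The part of other cells in the CXCR2 difference was not tested.

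GFRAL had 1 count in the 8 libraries, in MANIO, and RET, its signalling partner, held 7.19 ± 0.9002 and 7.25 ± 1.08 CPM (log2 fold change 0.01, 95% interval -0.24 to 0.26). KIT and CCR6 had 0 counts in all libraries together, which allows up to 3 counts or 0.0125 CPM over the 8 libraries. For CCR6, 69.2% of the exonic bases overlap another gene, and how reads there were counted is not stated. IL1R1, the interleukin-1 receptor gene, fell from 13.7 ± 0.524 to 9.34 ± 0.948 CPM (-0.55, SE 0.0816, edgeR adjusted p = 4.3e-05). Its span is 115 kb, in a class where 36.4% of genes were called lower and 22.8% higher. The accessory chain gene IL1RAP (-0.31, adjusted p = 0.0959) and IL18R1 (-0.33, adjusted p = 0.105) did not pass, although the groups did not overlap for IL18R1, and IL18RAP had 1 count. IL6ST, the signal-transducing chain for LIF, fell by 0.21 on the log2 scale (edgeR adjusted p = 0.00873), and LIFR at -0.19 did not pass (adjusted p = 0.0607). The LIFR log2 fold change passed without DMSO replicate 2, DMSO replicate 3 or MANIO replicate 4, and the IL1RAP log2 fold change passed without DMSO replicate 2 (adjusted p = 0.0140).

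**Figure D3:**
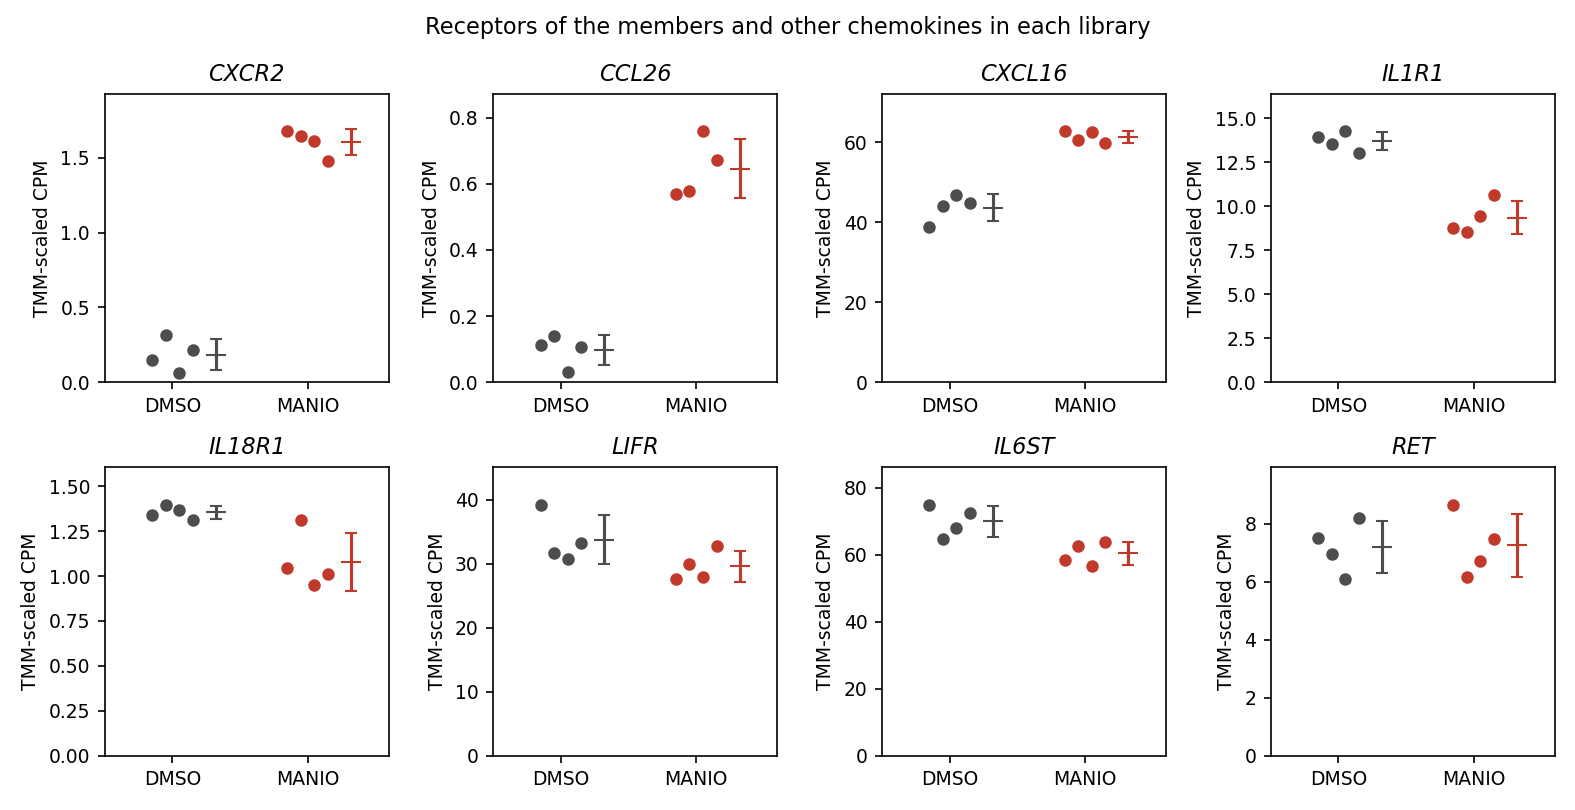
Level in TMM-scaled CPM (linear axis from 0, own scale per gene) of receptors of the 10 genes and of the chemokine genes CCL26 and CXCL16 in each library, with the mean ± SD beside the points. CXCR2 rises from 0.185 to 1.605 CPM with no overlap, IL1R1 is lower in all 4 MANIO libraries, and RET overlaps fully.

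Related genes were read from lists of ligands, receptors and regulators. Of 32 other chemokine genes, 30 were below the filter, each with at most 34 counts in all libraries together. The remaining CXCL16 and CCL26 were both called higher, as were 27.8% of all tested genes. CCL26 passed the filter only through its MANIO libraries, so from its DMSO level a fall could not have been tested. CXCL16, a membrane-anchored chemokine, went from 43.6 ± 3.39 to 61.4 ± 1.498 CPM (log2 fold change 0.49, edgeR adjusted p = 8.7e-06). CCL26, eotaxin-3, had 3, 4, 1 and 3 counts in DMSO and 18, 19, 24 and 20 in MANIO (2.70, SE 0.346, adjusted p = 1.1e-05). On chromosome 4, CXCL6, PF4, PPBP and CXCL5, which lie between CXCL8 and CXCL2, had 0 counts in all 8 libraries. Of 19 chemokine receptor genes 3 were tested, and CXCR2 was the 1 called, 33.3% against 54.6% of all genes.

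Around GDF15, 15 of 16 processing and upstream genes were tested, 8 rose and 3 fell, 73.3% called against 54.6% of all genes. ATF3, a stress-induced transcription factor gene, rose by 2.39 and the membrane protease gene MMP14, whose product can cleave GFRAL, by 0.90 on the log2 scale. The proprotein convertase gene PCSK7 rose by 0.67, though 19.7% of its exonic bases overlap another gene, while FURIN had a log2 fold change of -0.01 and was not called. The ATF4 log2 fold change was -0.15 (455 ± 22.1 to 409 ± 11.3 CPM, edgeR adjusted p = 0.0222), a call lost without DMSO replicate 2, DMSO replicate 3 or MANIO replicate 4 (adjusted p from 0.0532 to 0.0787). SP1 fell by 0.36 and ATF2 by 0.29. Of the stress genes downstream of ATF4, DDIT3 had a log2 fold change of 0.26 and CHAC1 of 0.31, both called higher and both outside the naming rule. In DDIT3 39.6% of the exonic bases overlap another gene.

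Among 11 tested TGF-beta family ligand genes of 22 listed, 4 rose and 3 fell, 63.6% called against 54.6% of all genes. BMP7 rose by 0.73, TGFB3 by 0.81 and GDF11 by 0.41 on the log2 scale. BMP6 fell by 1.71, from 1.21 ± 0.267 to 0.364 ± 0.1003 CPM (SD, n = 4 each), MSTN by 1.26 and BMP8B by 0.41. MSTN was at a low level, with 20, 12, 13 and 19 counts in DMSO and 4, 13, 5 and 7 in MANIO. BMP6 and MSTN passed the filter only through their DMSO libraries. Of the named genes that fell, BMP6 spans 155 kb, BMP8B 31.7 kb and MSTN 7.03 kb. Of those that rose, BMP7 spans 97.9 kb, TGFB3 24.9 kb and GDF11 14.0 kb.

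In the interleukin-1 and interleukin-18 list 10 of 19 tested genes rose and 2 fell, 63.2% called against 54.6% of all genes. NLRP1, an inflammasome sensor gene, went from 9.90 ± 1.12 to 27.2 ± 2.15 CPM (log2 fold change 1.46, edgeR adjusted p = 4.2e-09). The signalling kinase gene IRAK2 went from 9.64 ± 0.456 to 21.0 ± 1.52 CPM (1.13, edgeR adjusted p = 1.2e-08). NLRP1 spans 120 kb and IRAK2 78.9 kb. CASP4, an inflammatory caspase gene, rose by 0.41, and HAX1 fell by 0.32. IL1RN, the receptor antagonist, and IL18BP, the decoy of interleukin-18, were called higher at 1.34 and 0.42, a pair outside the naming rule. IL1RN had 34 counts in all DMSO libraries together and 95 in all MANIO libraries. It passed the filter only through its MANIO libraries, so from its DMSO level a fall could not have been tested. CASP1, the caspase gene best known for cleaving interleukin-18, had 1 count in DMSO and 8 in MANIO. GSDMD, a pore-forming gasdermin gene, was expressed and not called (log2 fold change -0.15). IL1B had 0 counts in all libraries.

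In the LIF and interleukin-6 family list 22 of 25 genes were tested, 9 rose and 4 fell, 59.1% called and so near the 54.6% of all genes. STAT3, the transcription factor downstream of IL6ST, went from 101 ± 1.71 to 149.9 ± 7.24 CPM (0.57, edgeR adjusted p = 2.6e-07). The cytokine gene CLCF1 rose by 0.61 and the kinase gene TYK2 by 0.30. SOCS3, a suppressor of cytokine signalling, and the kinase gene PIM1 fell by 0.30 and 0.22 on the log2 scale. Of the other suppressors listed, SOCS2 rose by 0.26 and PIAS3 by 0.21, and SOCS1 (-0.02) and CISH (0.17) did not pass. In the stem cell factor list 11 of 13 genes were tested, 1 rose and 3 fell, 36.4% called against 54.6% of all genes. MITF, a KIT-linked transcription factor gene that spans 229 kb, fell by 1.07, LYN by 0.28 and GRB2 by 0.12, and CBL rose by 0.17. CBL spans 108 kb. GRB2 kept its call in 1 of 8 fits with 1 library left out, that without DMSO replicate 4. CBL lost its call without DMSO replicate 3, DMSO replicate 4, MANIO replicate 1 or MANIO replicate 2.

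NF-kB genes were called at 11 of 22, close to the background of 54.6%. RELB rose by 0.76 and NFKB2 by 0.52 on the log2 scale, the subunits of the non-canonical branch, while TNFRSF1A fell by 0.35, NFKB1 by 0.20 and TRAF2 by 0.28. ICAM1, an adhesion gene, went from 0.268 ± 0.0431 to 1.28 ± 0.350 CPM (2.24, SE 0.273, edgeR adjusted p = 6.9e-06), with 23.6% of its exonic bases in exons of other genes. ICAM1 passed the filter only through its MANIO libraries, so from its DMSO level a fall could not have been tested. Of the feedback genes, TNFAIP3 rose by 0.49, BIRC3 by 0.45, NFKBIZ by 0.35 and TNIP1 by 0.27, and NFKBIA at 0.03 was not called. RELA at 0.14 was not called either. TRAF2 lost its call in 5 of 8 fits with 1 library left out, keeping it without DMSO replicate 1, DMSO replicate 4 or MANIO replicate 3.

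The stability of cytokine mRNAs depends on a set of factors, some of which clear them while others stabilise them. Of these, 19 were tested, 6 rising and 7 falling, 68.4% called against 54.6% of all genes. ELAVL1, a stabilising factor on that list and outside the naming rule, fell by 0.23 on the log2 scale. HNRNPD, which encodes AUF1, went from 455 ± 21.2 to 287 ± 18.9 CPM (-0.67, edgeR adjusted p = 2.4e-07), and AUH fell by 0.52. The ribonuclease genes ZC3H12A and ZC3H12C rose by 0.52 and 0.42, RC3H1 by 0.47 and ZFP36L1 by 0.34. Among 22 tested genes of other secreted factors, 8 rose and 3 fell, a share near the 54.6% of all genes. LCN2, the lipocalin gene, went from 1.53 ± 0.114 to 3.31 ± 0.368 CPM (SD, n = 4 each; 1.11 on the log2 scale, edgeR adjusted p = 5.75e-06). CSF1 rose by 0.68 and PDGFA by 0.52, while SPP1, the osteopontin gene, fell by 0.83 and FGF19 by 0.47.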

How the data were processed

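RNA of 4 MANIO and 4 DMSO samples was sequenced from TruSeq version 2 libraries, a kit without strand marking, per the labels' protocols. The authors deposited raw read counts for 58302 genes in 8 columns, each matched to 1 sample by its label. Per the submitters' processing notes, which give no roles, DESeq2, HTSeq, STAR 2.5.3a and FastQC 1.3 were used with GRCh38. Positions and exons are from GENCODE 29.

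Counts were fitted in R 4.3.3 with edgeR 4.0.16 (filterByExpr, TMM, robust quasi-likelihood F test, group only, Benjamini-Hochberg over all tested genes). SEs and 95% intervals derive from the F statistic. DESeq2 1.42.0 and further settings served as alternatives. The likeness measure used a pseudocount of 0.1 CPM. The procedure was tested on simulated data. No library duplicated another: within groups, chi-square over its degrees of freedom was 3.59 to 23.9.

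The genes, lists and naming rule were chosen with earlier results of these data known. The rule names all 10 genes, their receptors, and from each list up to 4 called genes of smallest p and up to 2 of the rarer direction. Some genes the rule selects are not reported here. Others named were chosen after their values were seen. TGFB1 and ZFP36 were not analysed here.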

Additional observations from a re-analysis of the deposited data

Results flagged for a closer look

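Among 124 sets of 4 libraries (1 gene in 1 group), 6 had a library far from the other 3 for the range of the set. Each of these was in DMSO. The sets share the same 8 libraries and are not independent. DMSO replicate 1, flagged for GDF15, CXCL3 and NFKB2, had chi-square over its degrees of freedom of 20.4 to 23.9 against the other DMSO libraries. The remaining DMSO pairs had 3.59 to 10.1. The cause was not tested. For GDF15, DMSO replicate 1 held 100.4 CPM against 139 to 142 CPM in the others. For CXCL1, DMSO replicate 2 held 0.734 CPM against 0.924 to 0.955 CPM. For CXCL3, DMSO replicate 1 held 0.781 CPM against 0.594 to 0.605 CPM. ATF2 held 38.01 CPM in DMSO replicate 2 against 42.1 to 42.8 CPM. CASP4 held 30.4 CPM in DMSO replicate 3 against 33.8 to 34.0 CPM. NFKB2 held 98.1 CPM in DMSO replicate 1 against 111 to 113 CPM.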

How the results depend on the processing

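GDF15, KITLG, CXCL1, CXCL3, CXCL8 and LIF kept their direction and side of the threshold in all 14 alternatives, with log2 fold changes from 1.85 to 2.06 for GDF15 and from -0.96 to -0.83 for KITLG. Of the 10 genes, 2 were called higher and 1 lower, and DESeq2 and edgeR's glmTreat each called 1 higher. With 1 library left out, 1 to 3 were called higher and 1 to 2 lower. Without a count filter, and with a replicate block, 2 were called lower. IL1A lost its call with DESeq2 (0.79) and glmTreat (0.80; adjusted p = 0.0628), and it ranged from 0.66 to 1.02 with 1 library left out. CXCL2 gained a call without a count filter (-0.76) and with a replicate block (-0.73), ranging from -0.95 to -0.49 with 1 library left out. IL18 gained one in the same fits (0.16 and 0.18), ranging from 0.11 to 0.23. The cause was not tested.

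Whether same-numbered libraries form pairs was not settled. The correlations of their deviations ran from -0.02 to 0.32, and 3 of 4 exceeded 0.1. Only 1 of 4 libraries correlated best with the one of its own number. Each of the other calls among the 10 genes was kept with the replicate block.

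Against a 1.2-fold limit glmTreat called 4132 genes in place of 8574. It called 5 in place of 11 of the GDF15 list, 5 of 12 in the interleukin-1 list and 4 of 13 in the LIF list. It also called 1 of 4 in the stem cell factor list, 5 of 13 mRNA stability factors and 5 of 11 NF-kB genes. The stem cell factor list had 2 calls without a count filter, or without DMSO replicate 3, MANIO replicate 1 or MANIO replicate 2, and the chemokine receptors had 2 without a count filter or without DMSO replicate 1. The RET log2 fold change, not called, changed sign without a count filter (-0.00285) and ranged from -0.0825 to 0.0860 with 1 library left out. Of 742 values of 53 other named genes, 695 kept direction and call, 35 lost the call, 7 gained one (IL1RAP and LIFR) and 5, all of RET, changed sign. CCL20, tested without a count filter (-0.34, adjusted p = 0.799) and by DESeq2 (-0.34, adjusted p = 0.867), was called by neither.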
